A study of Mus musculus with 2 samples.

Results

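The 10 genes described here, Clec4d, Clec4e, Clec4n, Clec7a, Clec9a, Clec10a, Mgl2, Cd209a, Cd209d and Mrc1, encode C-type lectin receptors of myeloid cells. They were chosen by name among the 55416 genes of the deposited count matrices, and all 10 were found in both matrices under 1 gene ID each. Single-cell RNA sequencing with a 5′ kit counted unique molecular identifiers (UMIs, each standing for 1 captured mRNA molecule) in leukocyte preparations of gastrocnemius muscle and of lung, enriched on magnetic beads against CD45. Both tissues were labelled as from TB mice, with "CAC mouse model" as the genotype, and neither abbreviation was interpreted here. No treatment, strain, age or number of pooled mice was given, and the labels named no control group. Each tissue was 1 library without replicates, and differences between tissues therefore could not be tested. Values in brackets after a level, share or ratio are exact 95% intervals for counting error alone.

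C-type lectin receptors are membrane proteins that recognise sugars or other ligands of microbes and damaged cells. Clec4e (Mincle), Clec4d (MCL), Clec4n (Dectin-2) and Clec7a (Dectin-1) activate myeloid cells through the kinase Syk and the adaptor Card9. Clec4e, Clec4d and Clec4n reach Syk through the Fc receptor gamma chain encoded by Fcer1g, whereas Clec7a carries its own signalling motif. Clec9a lets type 1 conventional dendritic cells sense actin exposed by dead cells, the paired receptors Clec10a and Mgl2 bind galactose-type sugars, Cd209a and Cd209d are mouse relatives of human DC-SIGN, and Mrc1 is the macrophage mannose receptor, an endocytic receptor.

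The muscle library held 14056163 UMIs in 5547 barcodes and the lung library 34751225 UMIs in 8481 barcodes. Barcodes with at least 200 genes and at most 10% mitochondrial UMIs were used, a limit that 59.5% of muscle barcodes and 3.22% of lung barcodes exceeded. After removal of scored doublets, 2143 muscle cells and 7638 lung cells remained, of which clusters with leukocyte markers held 14.7% (13.2 to 16.2%) in muscle and 74.6% (73.6 to 75.6%) in lung. Endothelial-like cells (1110) were the most numerous class of the bead-selected muscle cells. The libraries shared 64 barcode sequences, 21 of them among kept cells.

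Clusters were named by fixed markers, among which no lectin receptor of the 10 was included, and the 10 genes were also kept out of the variable genes that shaped the clusters. Neutrophil-like cells numbered 58 in muscle and 2618 in lung. Classical monocyte-like cells numbered 33 in muscle and 680 in lung. Macrophage-like cells, defined by complement C1q genes, Apoe and related markers, numbered 50 in muscle and 92 in lung. Cells resembling type 2 conventional dendritic cells (cDC2-like) numbered 141 in muscle and 73 in lung. Cells resembling type 1 conventional dendritic cells (cDC1-like) numbered 11 in muscle and 77 in lung. Alveolar macrophage-like cells numbered 5 in muscle and 369 in lung, and migratory dendritic cell-like cells 0 in muscle and 136 in lung. Levels are in CPM, the summed UMIs of a gene per 1e6 summed UMIs of all genes in the group. They were not compared between genes.

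**Figure D1:**
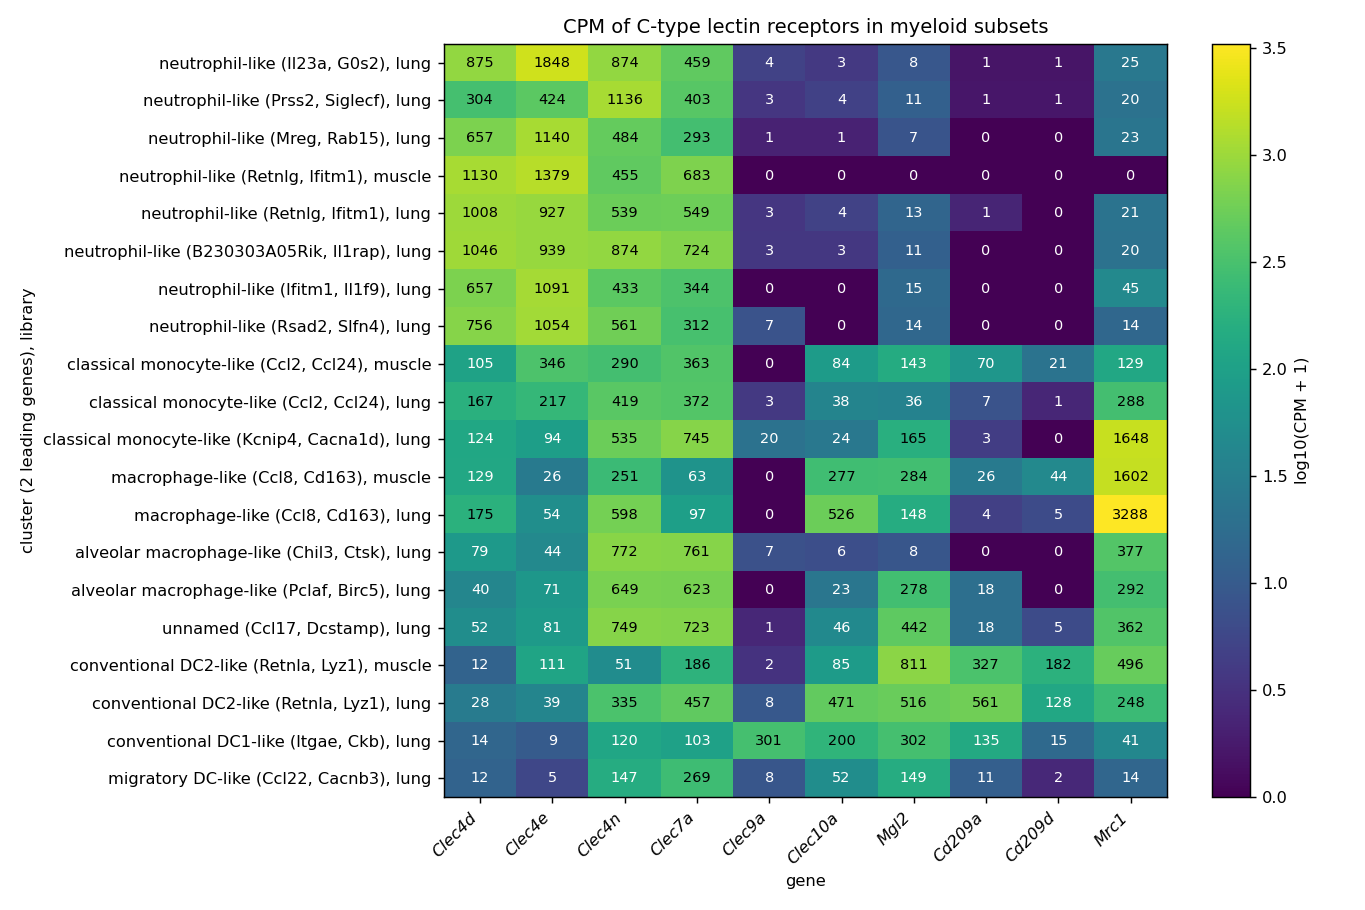
CPM of the 10 receptors (columns) in each myeloid cluster with at least 20 cells of a library (rows, named by class, 2 leading genes and library). The colour is log10(CPM + 1) and the printed number is the CPM. Clec4d and Clec4e are highest in neutrophil-like rows, Mrc1 in macrophage-like rows, Mgl2, Cd209a and Cd209d in cDC2-like rows and Clec9a in the cDC1-like row.

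Clec4d and Clec4e mRNA was concentrated in neutrophil-like cells of both tissues. Neutrophil-like cells held 61.0% of the Clec4d counts in muscle (192 of 315) and 74.6% in lung (4269 of 5721). They held 49.7% of the Clec4e counts in muscle (308 of 620) and 81.2% in lung (6521 of 8031). Both genes encode receptors for mycobacterial cord factor, and Clec4d is known to stabilise Clec4e at the cell surface. Over the 20 profiles of a myeloid cluster in 1 library, their levels ran together with a Pearson correlation of 0.89 on log2(CPM + 10), given as a description because profiles share libraries and depth.

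The pair is also adjacent on chromosome 6, with Clec4n as the next neighbour on the other side of Clec4d (RefSeq annotation of GRCm38.p6). Because these neighbours ran together, their RefSeq promoter windows of 250 bases before and 50 bases after the gene start are shown, 5′ to 3′ on the strand of the gene, for Clec4d at chr6:123261857-123262156 (plus strand) and Clec4e at chr6:123289822-123290121 (minus strand). Coordinates are those of GRCm38.p6, which is not the build on which the reads were counted. Capitals mark matches on either strand to GAGGAA, the core of sites for the myeloid factor PU.1, and to TTGCNNAA, a pattern of C/EBP sites. No 2 matches overlap.
Clec4d: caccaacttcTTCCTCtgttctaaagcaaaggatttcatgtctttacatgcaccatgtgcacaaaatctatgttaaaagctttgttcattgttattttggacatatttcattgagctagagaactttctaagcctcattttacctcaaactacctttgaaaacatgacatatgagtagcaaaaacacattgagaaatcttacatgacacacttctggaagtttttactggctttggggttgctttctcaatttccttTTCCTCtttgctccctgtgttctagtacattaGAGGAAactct
Clec4e: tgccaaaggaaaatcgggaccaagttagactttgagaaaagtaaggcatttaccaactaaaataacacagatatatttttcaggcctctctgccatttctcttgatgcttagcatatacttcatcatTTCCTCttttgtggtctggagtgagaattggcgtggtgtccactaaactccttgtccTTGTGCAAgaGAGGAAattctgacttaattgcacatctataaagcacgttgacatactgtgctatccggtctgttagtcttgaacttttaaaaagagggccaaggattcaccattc
Clec4d held 3 PU.1 matches and no C/EBP match, and Clec4e held 2 PU.1 matches and 1 C/EBP match. Among 32851 promoter windows in the same table, 28.3% held a PU.1 match and 10.8% a C/EBP match. A match is a run of letters and not a measured binding site. Windows were found for 8 of the 10 genes, all but Clec4n and Clec10a.

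Between the largest lung neutrophil-like clusters, Clec4e and Clec4n differed in opposite directions. The cluster led by Il23a, G0s2, Acod1, Cxcl2 and Cxcl3 (700 lung cells), an inflammatory set, had the highest Clec4e of all myeloid profiles at 1848 CPM (1785 to 1912). The cluster led by Prss2, Siglecf, Mmp9, Entpd3 and Tarm1 (686 lung cells) had the lowest Clec4e among neutrophil-like clusters of at least 20 cells at 424 CPM (392 to 457). Siglecf encodes a sialic acid-binding receptor best known from eosinophils and alveolar macrophages. That cluster also had the lowest Clec4d at 304 CPM (277 to 333), against 875 CPM (832 to 919.9) in the Il23a-led cluster. Its Clec4n level was the highest of all 20 profiles, 1136 CPM (1084 to 1190.3), against 874 CPM (831 to 919) in the Il23a-led cluster. Clec7a differed less between the same clusters, 403 CPM (372 to 435) against 459 CPM (428 to 492).

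Among lung neutrophil-like clusters of at least 20 cells, the others lay between these for Clec4e. The cluster led by Mreg, Rab15, Ccl3, Hcar2 and Enthd1 (499 cells) had 1140.5 CPM, the interferon-response cluster led by Rsad2, Slfn4, Gm13822, Isg15 and Cxcl10 (56 cells) 1054 CPM, and the shallow cluster led by Ifitm1, Il1f9, Asprv1, Chil1 and G0s2 (78 cells, median 775 UMIs) 1091 CPM. These 3 intervals overlapped in order, so their ranking is within counting error. The cluster led by B230303A05Rik, Il1rap, Med12l, Antxr2 and Pik3ap1 (255 cells) combined 939 CPM of Clec4e with 1046 CPM (973 to 1122) of Clec4d and with 724 CPM (664 to 789) of Clec7a. Over the whole cluster Malat1 was at 20051 CPM, against 8195 CPM over all lung neutrophil-like cells, and the part of this nuclear RNA in these levels was not tested. In 14 lung cells of the granule cluster led by Camp, Ngp, Ltf, Lcn2 and Cstdc5, genes of neutrophil precursors, Clec4d had 156 CPM (89.2 to 253) and Clec4e 341 CPM (238 to 475).

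**Figure D2:**
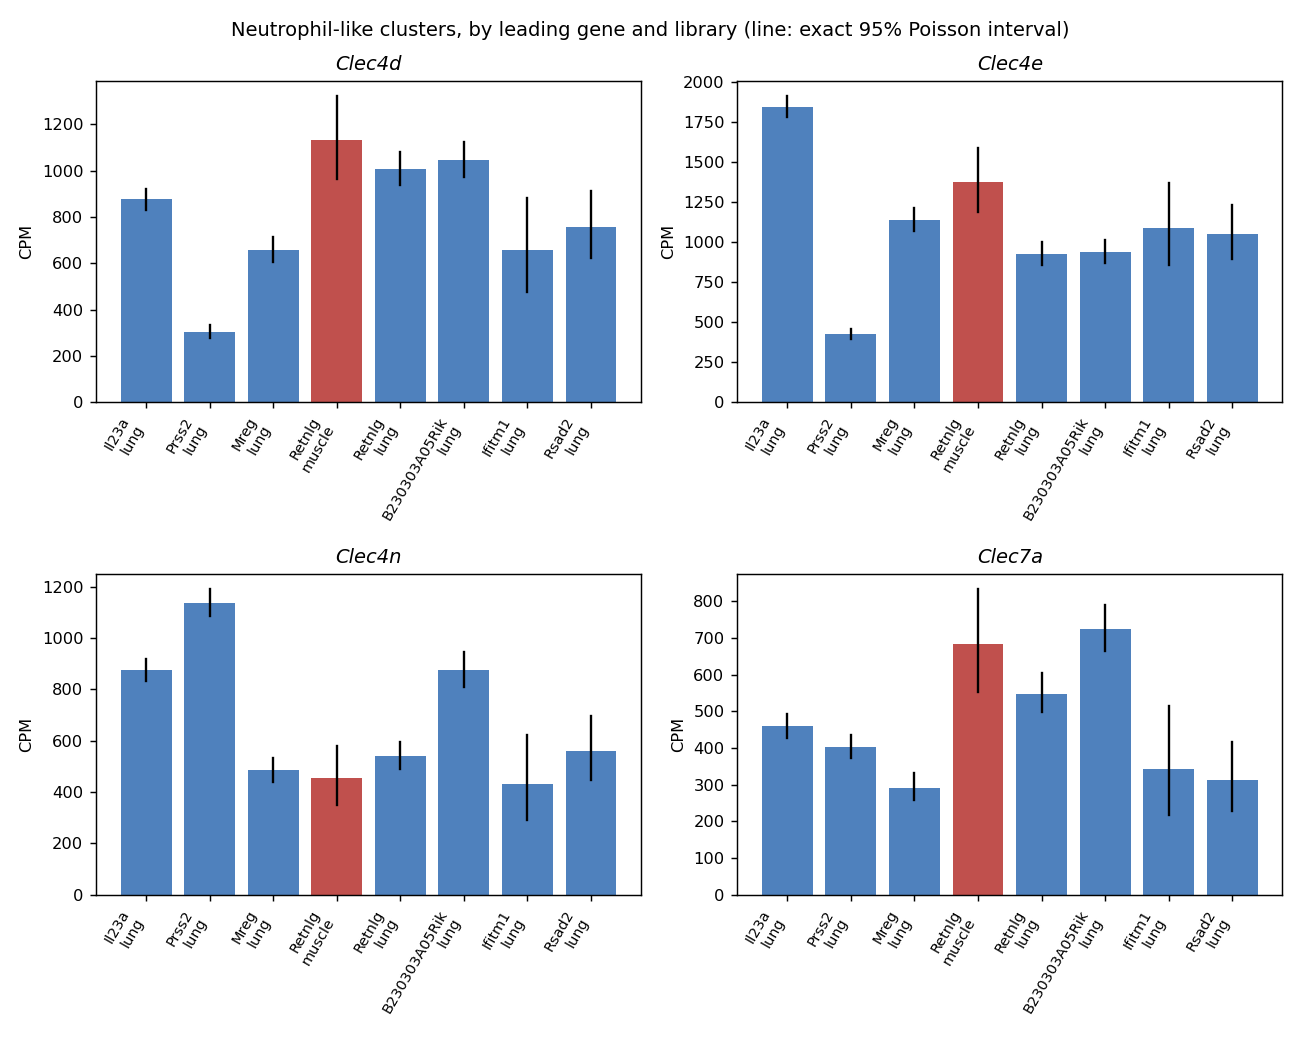
CPM of Clec4d, Clec4e, Clec4n and Clec7a in neutrophil-like clusters with at least 20 cells of a library, each bar named by the leading gene and library (red muscle, blue lung) and each line an exact 95% Poisson interval. The Prss2-led lung cluster is lowest for Clec4d (304 CPM) and Clec4e (424 CPM) and highest for Clec4n (1136 CPM).

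Muscle neutrophil-like cells carried the same 4 activating receptors. Of the 58 muscle cells, 44 fell in the cluster led by Retnlg, Ifitm1, Asprv1, S100a9 and Stfa2l1, which held 330 of the 2618 lung cells. Within this cluster Clec4e had 1379 CPM (194 counts) in muscle and 927 CPM (705 counts) in lung, giving a log2 ratio of muscle over lung of 0.57 (0.34 to 0.80). Clec4d had 1130.4 CPM (159 counts) in muscle and 1008 CPM (766 counts) in lung, with a log2 ratio of 0.17 (-0.09 to 0.41). Clec7a had 683 CPM (96 counts) in muscle and 549 CPM (417 counts) in lung, with a log2 ratio of 0.32 (-0.02 to 0.64). Of these 3 only the Clec4e interval stayed above 0.

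Over the whole neutrophil-like class, Clec4e had 1454 CPM (308 counts) in muscle and 1091 CPM (6521 counts) in lung, with a log2 ratio of 0.41 (0.24 to 0.58). The class level of Clec4d was 906 CPM (192 counts) in muscle and 714 CPM (4269 counts) in lung, with a log2 ratio of 0.34 (0.13 to 0.55). That of Clec7a was 486 CPM (103 counts) in muscle and 452 CPM (2704 counts) in lung, and its interval included 0 (-0.19 to 0.39). These 3 receptors were thus at or somewhat above the lung level in muscle, whereas Clec4n was below it. Clec4n had 439 CPM (93 counts) in muscle and 820.1 CPM (4901 counts) in lung, giving a log2 ratio of -0.90 (-1.21 to -0.61). Within the Retnlg-led cluster the same gene had 455 CPM in muscle and 539 CPM in lung, and its log2 ratio of -0.25 had an interval that included 0 (-0.65 to 0.14). The other 6 receptors had no count in muscle neutrophil-like cells, where the floor of 3 counts over the class is 14.2 CPM. In lung neutrophil-like cells their levels ran from 0.335 CPM for Cd209d to 21.8 CPM for Mrc1, and Mrc1 had 16.4 CPM (11.3 to 23.0) in lung B-like cells.

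Calls rested on size alone: a gene counted as higher or lower in muscle if the tissues differed by a factor of 4 or more, the interval lay beyond a factor of 2, and the tissue with the higher level gave 30 counts or more. In neutrophil-like cells none of the 6 receptors with enough counts was called in either direction, where 0.715% of 6715 genes were higher in muscle and 2.2% were lower. For Mrc1 and Mgl2, without a count in muscle, a call of lower was out of reach. At the floor of 3 counts the Mrc1 ratio of muscle over lung is bounded at 0.651, and Mgl2 gave no usable ratio. No usable ratio was given by 1103 of the 6715 genes either. No p-value underlies this rule, and receptors without a call are not shown to be equal between tissues. Over the 4 receptors with counts in both tissues the median log2 ratio was 0.22, beside -0.70 over the 5249 such genes. Here 3 counts equal 14.2 CPM in muscle but 0.502 CPM in lung. The minimum of 30 counts therefore admits lung-high genes at lower levels than muscle-high ones. This tilts the shares called and the median over all genes towards lung. The same holds for monocyte-like cells (9.16 and 0.634 CPM) and macrophage-like cells (11.1 and 5.40 CPM), with the reverse in cDC2-like cells (2.28 and 8.37 CPM). Of 10 measured genes in the Fcer1g, Syk and Card9 signalling list none was called and their median was 0.04. Fcer1g had 2559 CPM in muscle and 2673 CPM in lung neutrophil-like cells. Syk had 585 CPM in muscle and 1028 CPM in lung, and Card9 had 37.8 CPM in muscle and 11.0 CPM in lung.

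Among 8 measured cytokine genes downstream of this pathway, 3 were called lower in muscle, and the list median log2 ratio was -1.77 with 1 gene entered at its bound. The chemokine gene Ccl3 had 279 CPM in muscle and 3363 CPM in lung, with a log2 ratio of -3.59 (-3.99 to -3.23). Il23a, a subunit of interleukin 23, had 23.6 CPM (5 counts) in muscle and 172 CPM in lung. The neutrophil attractant Cxcl1 had no count in muscle and 72.8 CPM in lung, at least 5.14-fold lower in muscle against a floor of 3 counts in the class. Il23a and Ccl3 are also leading genes of lung clusters that held 3 and 1 of the 58 muscle cells. Of 7 measured alternative activation genes 3 were lower in muscle and none was higher. Their median was -0.74 with 3 genes entered at their bounds and -0.37 over the 4 with counts in both tissues. Arg1 had no count in muscle and 169 CPM in lung, Ccl17 no count in muscle and 61.9 CPM in lung, and Pdcd1lg2, a ligand of the receptor PD-1, 14.2 CPM (3 counts) in muscle and 94.2 CPM in lung. Of 6 other C-type lectin receptors none was called (median -1.32). The summed neutrophil markers had 134239 CPM in muscle and 45149 CPM in lung, all 10 detected in both. Macrophage markers summed to 212 CPM in muscle, with 8 of 15 at 0, and to 869 CPM in lung with none at 0. Myofibre markers summed to 274 CPM in muscle and 5.35 CPM in lung, and their part in these differences was not tested.

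Shares of cells with a UMI were compared at equal depth. After every cell was thinned to 1000 UMIs, Clec4e was detected in 57.9% of the 57 neutrophil-like cells from muscle and in 43.7% of the 2312 from lung. Unthinned, those shares were 72.4% in muscle and 56.8% in lung. The thinned share for Clec4d was 56.1% in muscle against 42.9% in lung. For Clec4n it was 36.8% in muscle against 44.1% in lung. In lung B-like cells (median 2020 UMIs), which should lack these genes, thinned shares were 1.42% for Clec4e, 1.74% for Clec4d and 3.94% for Clec4n. In muscle endothelial-like cells (median 2750 UMIs) none of 1110 cells held a UMI of Clec4d or Clec4e, which by the floor of 3 cells allows up to 0.270% of cells with a UMI and sets no limit on cells that express the gene.

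**Figure D3:**
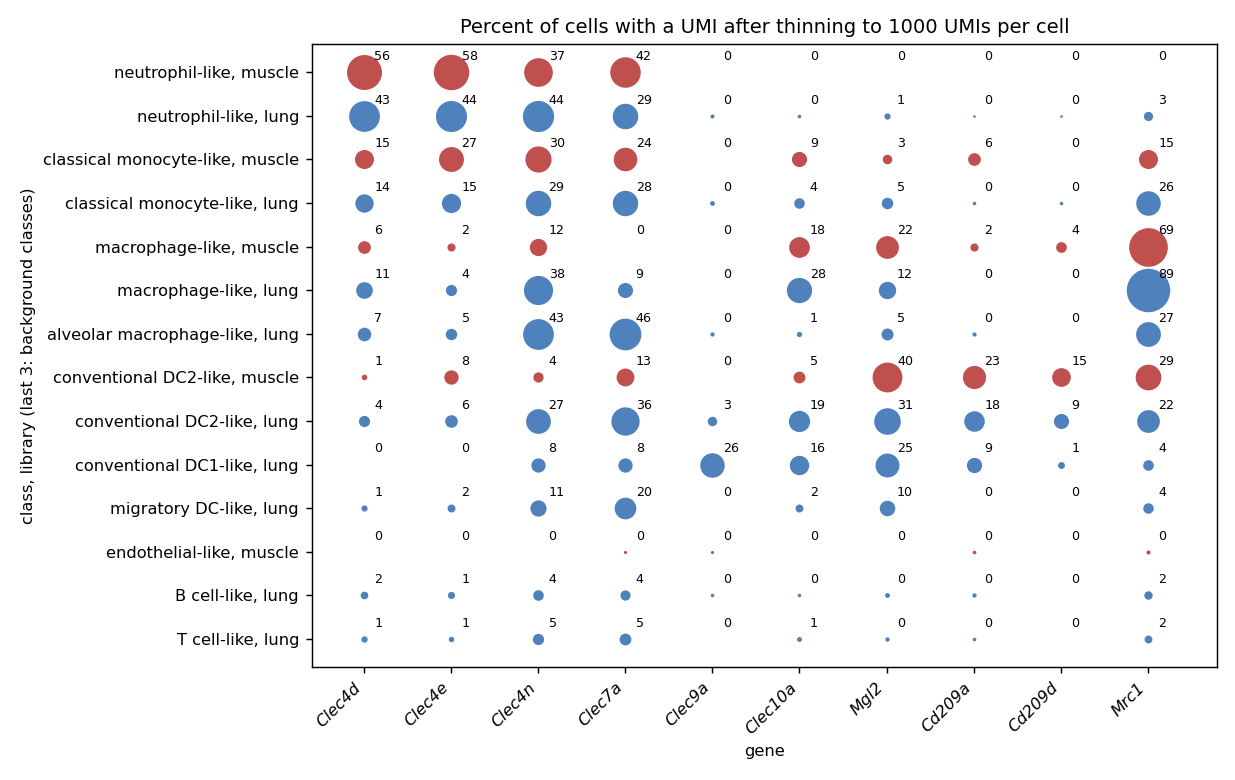
Percent of cells with a UMI of each receptor (columns) after thinning to 1000 UMIs per cell, by class and library (rows; red muscle, blue lung). The dot area grows with the percent, which is printed beside it, and the last 3 rows are classes that should lack these genes. Mrc1 reaches 69.4% of muscle and 88.8% of lung macrophage-like cells, while the background classes stay at 5.08% or below.

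Clec4d and Clec4e were often seen in the same neutrophil-like cell. After thinning, 71.9% of the muscle cells with Clec4d also held Clec4e, against 40.0% of those without Clec4d. These shares rest on 23 cells with both, 9 with Clec4d alone, 10 with Clec4e alone and 15 with neither. In lung the shares were 53.4% with and 36.4% without Clec4d. The class pools clusters that differ in both genes, and the part of this in the shares was not tested. With Clec4e as the partner gene, Clec4n was seen in 48.5% of Clec4e-positive and 20.8% of Clec4e-negative muscle cells. Here 16 muscle cells held both, 17 Clec4e alone, 5 Clec4n alone and 19 neither. In lung those shares were 46.8% of Clec4e-positive and 42.0% of Clec4e-negative cells. Cells with 4 or more of the 10 receptors made up 5.26% of this class in muscle and 4.54% in lung. Cells with none made up 15.8% in muscle and 15.6% in lung.

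Clec7a and Clec4n, the fungal beta-glucan and mannan receptors, were spread over more cell classes than Clec4d and Clec4e. Clec7a ranged from 62.8 CPM in muscle macrophage-like cells to 761 CPM in the alveolar macrophage-like cluster led by Chil3, Ctsk, Atp6v0d2, Ear1 and Hebp1. The 6 highest Clec7a profiles overlapped neighbour by neighbour in that order, and they included alveolar macrophage-like, monocyte-like, neutrophil-like and unnamed cells. Clec4n ranged from 50.9 CPM in muscle cDC2-like cells to the 1136 CPM of the Prss2-led neutrophil-like cluster, and the next 2 profiles in order were both neutrophil-like at 874 CPM. Alveolar macrophage-like cells of the lung had 739 CPM of Clec4n (709 to 769.8) and 724 CPM of Clec7a (695 to 755). Marker support for this class was uneven, with 22748 counts of Chil3 (7268 CPM) and 71 counts of Siglecf (22.7 CPM) in its 369 lung cells. After thinning, Clec7a was seen in 45.9% of these cells and Clec4n in 42.9%, against 3.63% and 3.94% in lung B-like cells.

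Monocyte-like cells carried all 4 activating receptors, with log2 ratios of muscle over lung between -0.76 and 0.93. Clec4e had 354 CPM (116 counts) in muscle and 186 CPM (879 counts) in lung, with a log2 ratio of 0.93 (0.64 to 1.21) that ranged down to 0.08 over the alternatives. Neutrophil markers summed to 2161 CPM in muscle and 752 CPM in lung monocyte-like cells, with 1 of 10 at 0 in muscle and none in lung, and their part was not tested. Clec4n had 266 CPM in muscle and 448 CPM in lung, with a log2 ratio of -0.76 (-1.08 to -0.45). Clec7a had 357 CPM in muscle and 465 CPM in lung, with a log2 ratio of -0.38 (-0.66 to -0.11). Within the Ccl2-led cluster, which held 28 of the 33 muscle and 556 of the 680 lung cells, the Clec7a interval included 0 (-0.34 to 0.25), and the ratio turned to 0.26 with doublets kept and to 0.23 with libraries clustered alone. Clec4d had 143 CPM (47 counts) in muscle and 157 CPM (741 counts) in lung, and its interval included 0 (-0.58 to 0.30). Within the Ccl2-led cluster Clec4d had 105 CPM (30 counts) in muscle and 167 CPM (594 counts) in lung, with a log2 ratio of -0.68 (-1.26 to -0.15) that excluded 0 but was not called.

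Mrc1 was the receptor of monocyte-like cells that was called lower in muscle, 1 of 7 measured, where 2.31% of 6285 genes were called lower and 0.143% higher. Clec9a, among the 7, had no count in muscle and gave no usable ratio, and 161 of the 6285 genes gave none. Mrc1 had 140.4 CPM (46 counts) in muscle and 628 CPM (2972 counts) in lung, giving a log2 ratio of -2.16 (-2.61 to -1.74). Of the lung counts, 1952 came from 1 cluster, led by Kcnip4, Cacna1d, Slc7a2, Slc8a1 and Nrg1, with 5 muscle and 124 lung cells. Marker support for the monocyte-like name of this cluster was weak. Its mean log2 marker fold was 0.80 with 4 markers up, against 1.67 and 7 in the Ccl2-led cluster. None of its 10 leading genes was a monocyte marker, against 2 in the Ccl2-led cluster. Its lung cells had 1648 CPM of Mrc1 (1576 to 1723), and the whole cluster had 9122 CPM of the nuclear RNA Malat1, whose part was not tested. Within the cluster led by Ccl2, Ccl24, Vcan, Arg1 and Thbs1, with 28 muscle and 556 lung cells, Mrc1 had 129 CPM in muscle and 288 CPM in lung, giving a log2 ratio of -1.15 (-1.67 to -0.68) that was not called. With a single pass of clustering, under which the monocyte-like class was drawn differently, the ratio over the class turned to 0.55.

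Within that same cluster Mgl2 was called higher in muscle, with 143 CPM (41 counts) in muscle and 35.5 CPM (126 counts) in lung and a log2 ratio of 2.01 (1.47 to 2.53). There 0.131% of 5336 genes were called higher and 1.87% lower. Over the class, with the Kcnip4-led cluster included, Mgl2 had 125 CPM in muscle and 67.9 CPM in lung and no call. It was higher in muscle in 12 of 15 alternatives, among which changes of the count minimum could not move the ratio. Cd209a had 67.1 CPM (22 counts) in muscle and 6.13 CPM (29 counts) in lung monocyte-like cells, below the 30 counts asked of a call. Of the 33 muscle monocyte-like cells, 6 held a UMI of Cd209a and 4 held one of Mgl2. All 41 Mgl2 counts of muscle, and with them the call, came from those 4 cells. The interval treats counts as independent and does not cover spread between cells. Mgl2 was seen in 12.1% of muscle and 14.9% of lung monocyte-like cells, and after thinning in 3.03% and 4.81%, so the share was not higher in muscle. Markers of cDC2 summed to 17242 CPM in muscle and 8200 CPM in lung monocyte-like cells, with none of 11 at 0 in either library, and their part in these values was not tested.

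Among other genes of monocyte-like cells, none of 11 measured signalling genes was called (median log2 ratio -0.14, beside -0.41 over the 5927 genes with counts in both tissues). Of 12 alternative activation genes 4 were lower and 1 higher in muscle, with a median of -1.09. Arg1, the arginase of alternatively activated cells, had no count in muscle and 2375 CPM in lung, at least 259-fold lower in muscle. Retnla, a secreted resistin-like protein, had 644 CPM in muscle and 35.3 CPM in lung. Arg1 and Ccl24 are also leading genes of the Ccl2-led cluster, which held 28 of the 33 muscle cells. Ccl24 had 15.3 CPM in muscle and 399 CPM in lung, Ccl17 3.05 CPM (1 count) in muscle and 163 CPM in lung, and Pdcd1lg2 9.16 CPM (3 counts) in muscle and 65.1 CPM in lung. Of 11 other C-type lectin receptors, the oxidised lipoprotein receptor Olr1 had 3.05 CPM (1 count) in muscle and 176 CPM in lung, and the scavenger receptor Colec12 3.05 CPM (1 count) in muscle and 51.2 CPM in lung. Their list median was -0.24 with 2 genes entered at their bounds and 0.33 over the 9 with counts in both tissues, and that of 9 cytokine genes was -1.18 with Cxcl1 as the single gene called lower (18.3 CPM in muscle, 252 CPM in lung).

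Mrc1 was highest in macrophage-like cells of both tissues. The class was a single cluster led by Ccl8, Cd163, Ccl7, Pf4 and Ms4a7. Mrc1 had 1602 CPM (434 counts) in muscle and 3288 CPM (1827 counts) in lung, with a log2 ratio of -1.04 (-1.19 to -0.89). At their own depth 94.0% (83.5 to 98.7%) of muscle cells and 98.9% (94.1 to 100.0%) of lung cells held it, and after thinning 69.4% of muscle and 88.8% of lung cells. In lung the next profile in order was the Kcnip4-led cluster, with the weakly supported monocyte-like name. Its 1648 CPM overlapped the muscle macrophage-like level. Mrc1 was lower in muscle macrophage-like cells in 12 of 15 alternatives, with log2 ratios from -1.61 to 0.72. Among these, changes of the count minimum and the rerun within this single cluster repeat the main ratio by construction.

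Clec10a and Mgl2, neighbours on chromosome 11 in GRCm38.p6, differed in opposite directions between tissues in macrophage-like cells. Clec10a had 277 CPM (75 counts) in muscle and 526 CPM (292 counts) in lung, with a log2 ratio of -0.92 (-1.31 to -0.55). Mgl2 had 284 CPM (77 counts) in muscle and 148 CPM (82 counts) in lung, with a log2 ratio of 0.95 (0.48 to 1.41). Markers of cDC2 summed to 16300.1 CPM in muscle macrophage-like cells, with none of 11 at 0, and to 4977 CPM in lung ones with 1 of 11 at 0, and their part was not tested. Clec10a and Mgl2 are similar in sequence, and how reads matching both genes were counted is not given in the sources used here, which also holds for Cd209a and Cd209d. Clec10a was lower in muscle in 11 of 15 alternatives and Mgl2 was higher in all 15, again including those that repeat the main ratio by construction. Among thinned macrophage-like cells of muscle, 5 held both, 4 held Clec10a alone, 6 held Mgl2 alone and 34 held neither. In lung 5 held both, 20 held Clec10a alone, 6 held Mgl2 alone and 58 held neither.

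Clec4n in macrophage-like cells had 251 CPM (68 counts) in muscle and 598 CPM (332 counts) in lung, giving a log2 ratio of -1.25 (-1.65 to -0.87). Clec4d, Clec4e and Clec7a had intervals that included 0. Cd209d had 12 counts in muscle (44.3 CPM) and 3 counts in lung (5.40 CPM), and Cd209a had 7 counts in muscle and 2 in lung. None of the 7 measured receptors was called in macrophage-like cells, where 1.26% of 2705 genes were higher and 2.33% were lower in muscle. Their median log2 ratio was -0.92, beside -0.27 over all genes.

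In the lists for macrophage-like cells, none of 10 signalling genes was called (median -0.21) and none of 5 other lectin receptors (median 0.23). Of 8 alternative activation genes Retnla was higher in muscle, with 746 CPM (202 counts) and 25 counts in lung, giving a log2 ratio of 4.05 (3.45 to 4.71). Retnla also leads the cDC2-like cluster, and the cDC2 markers that differed between these macrophage-like cells are given above with Mgl2. Arg1 had 29.5 CPM in muscle and 1291 CPM in lung, and Chil3, a chitinase-like protein abundant in alveolar macrophages, had 22.2 CPM in muscle and 261 CPM in lung. The list median was -1.12. Of 6 cytokine genes Il1b had 33.2 CPM in muscle and 711 CPM in lung and Il6 7.38 CPM (2 counts) in muscle and 115 CPM in lung, with a list median of -1.21. Neutrophil markers, which include the most abundant transcripts of that cell type, summed to 103 CPM in muscle with 6 of 10 at 0 and to 1109 CPM in lung with none at 0. The part of such RNA in these values was not tested.

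**Figure D4:**
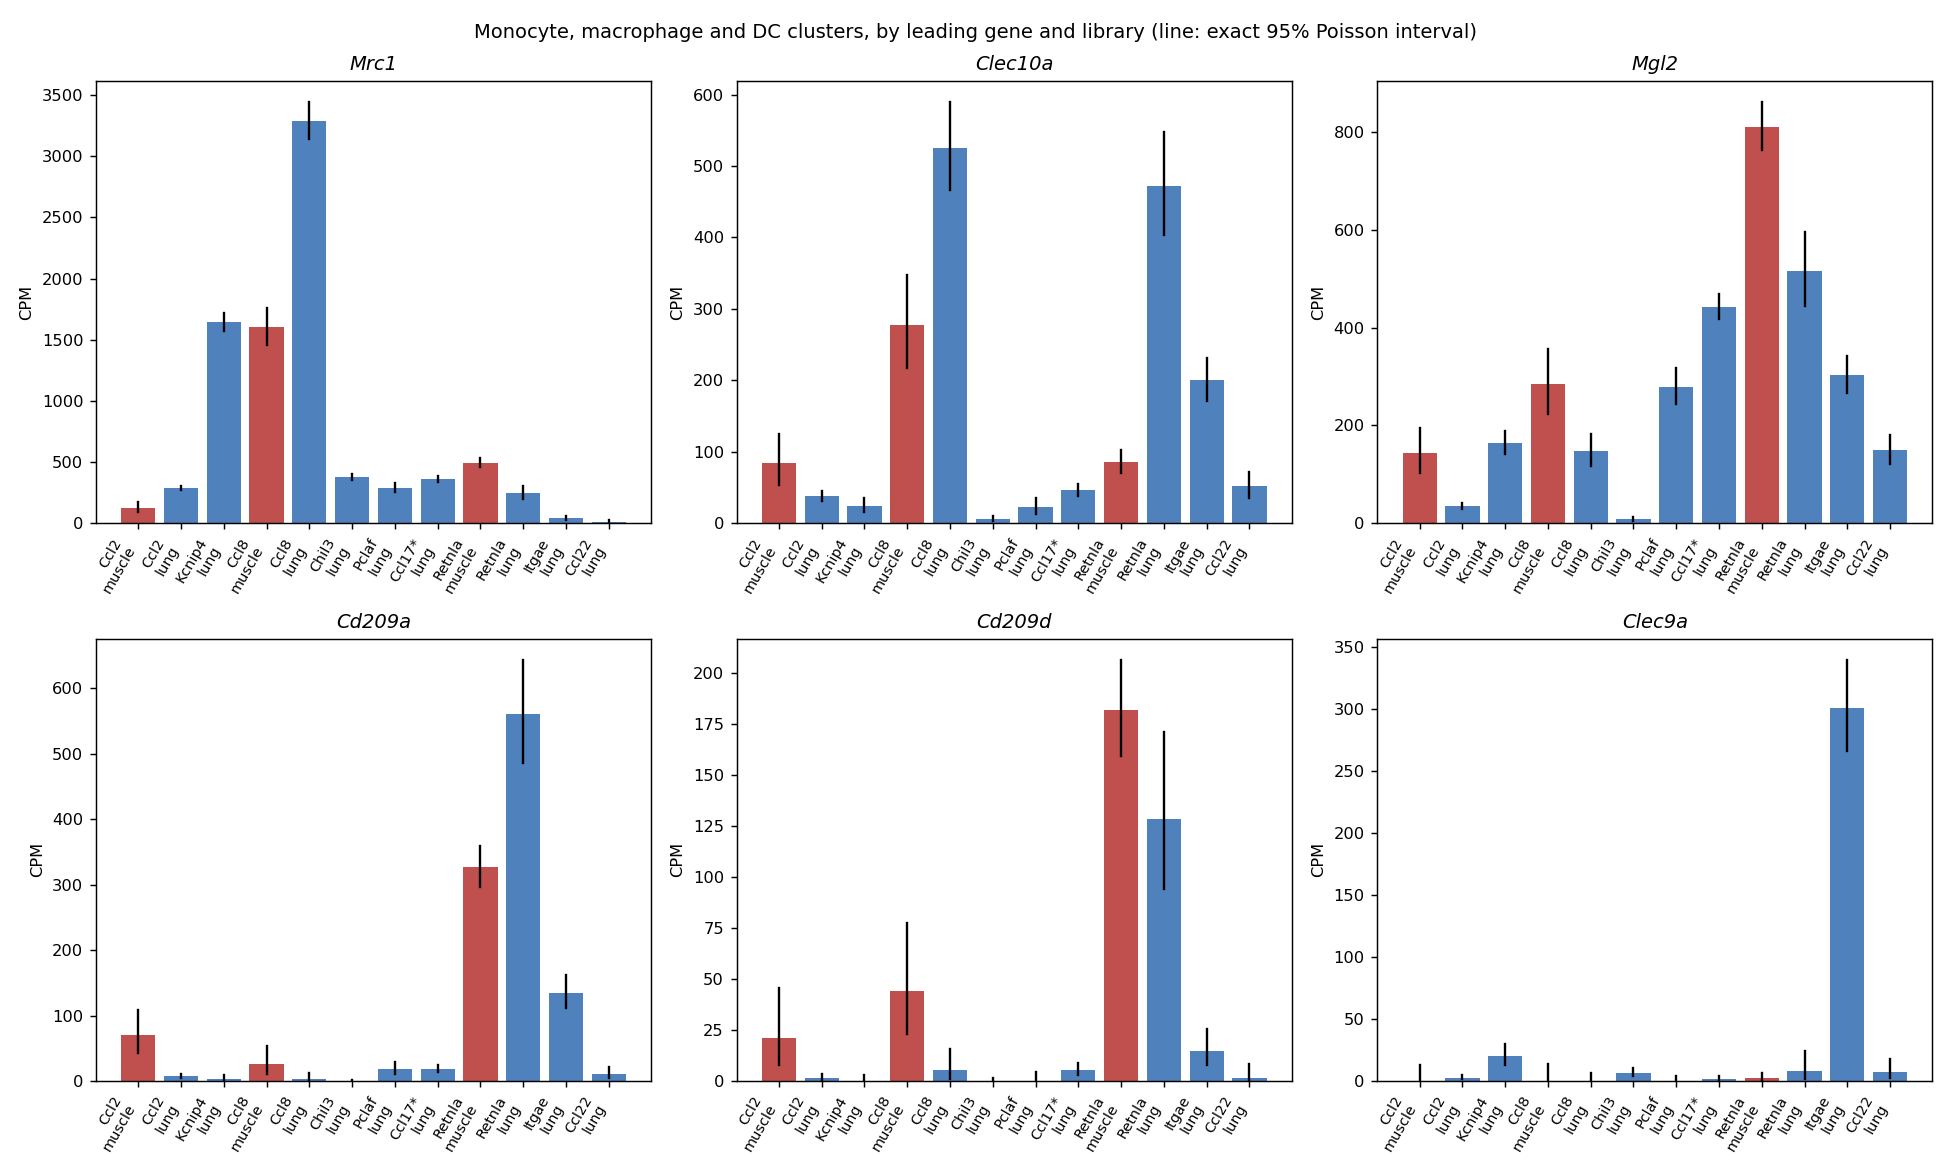
CPM of Mrc1, Clec10a, Mgl2, Cd209a, Cd209d and Clec9a in monocyte, macrophage, dendritic cell and unnamed (asterisk) clusters with at least 20 cells of a library, each bar named by leading gene and library (red muscle, blue lung) and each line an exact 95% Poisson interval. Mrc1 is highest in the Ccl8-led cluster (1602 CPM in muscle, 3288 CPM in lung), and Cd209a and Cd209d are highest in the Retnla-led cluster.

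The cDC2-like cluster was led by Retnla, Lyz1, Fcrls, Clec4b1 and Cd209c, and in muscle it held 84.0% of all Mgl2 counts, 90.7% of Cd209a counts and 90.9% of Cd209d counts. In lung it held 6.82% of Mgl2 counts, 42.6% of Cd209a counts and 27.5% of Cd209d counts. There unnamed clusters held 51.4% of Mgl2 counts and plasmacytoid dendritic cell-like cells 46.1% of Cd209d counts. Mgl2, a marker of dermal and other type 2 dendritic cells in mice, had 811 CPM (1066 counts) in muscle and 516 CPM (185 counts) in lung, with a log2 ratio of 0.65 (0.42 to 0.88). Cd209a had 327 CPM (430 counts) in muscle and 561 CPM (201 counts) in lung, with a log2 ratio of -0.78 (-1.02 to -0.53). Cd209d had 182 CPM (239 counts) in muscle and 128 CPM (46 counts) in lung, with a log2 ratio of 0.50 (0.04 to 0.99). Mrc1 had 496 CPM (652 counts) in muscle and 248 CPM (89 counts) in lung, with a log2 ratio of 1.00 (0.68 to 1.33). Mrc1 was higher in muscle in all 11 alternatives that gave a value, and Mgl2 and Cd209d in 10 of 11. Cd209a was lower in 7 of 11, with log2 ratios from -1.50 to 3.27. The Cd209d log2 ratio ran from -0.09 to 4.85, and its lack of a call held in 7 of 11. Among the 11, changes of the count minimum and the rerun within this cluster, which is the whole class, repeat the main ratio by construction.

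Cd209a and Cd209d ran together across the 20 profiles with a correlation of 0.91 and lie on chromosome 8 with 1 gene, Cd209e, between them in GRCm38.p6. Their RefSeq promoter windows are shown because these relatives shared a pattern, for Cd209a at chr8:3748935-3749234 and Cd209d at chr8:3878450-3878749 (both minus strand, GRCm38.p6), with the same motifs in capitals.
Cd209a: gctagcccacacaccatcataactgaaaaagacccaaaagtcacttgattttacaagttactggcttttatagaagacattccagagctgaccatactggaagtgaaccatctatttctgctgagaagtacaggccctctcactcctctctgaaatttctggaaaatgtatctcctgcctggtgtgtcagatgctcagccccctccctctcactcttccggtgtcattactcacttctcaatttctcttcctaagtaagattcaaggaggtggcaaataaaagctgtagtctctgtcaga
Cd209d: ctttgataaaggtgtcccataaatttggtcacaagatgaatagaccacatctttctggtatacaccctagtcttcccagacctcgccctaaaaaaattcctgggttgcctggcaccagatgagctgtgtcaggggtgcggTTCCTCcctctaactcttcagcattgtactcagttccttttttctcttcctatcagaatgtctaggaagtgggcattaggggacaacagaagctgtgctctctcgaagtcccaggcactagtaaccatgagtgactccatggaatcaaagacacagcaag
Cd209d held 1 PU.1 match, and Cd209a held none of the motifs searched, which says only that these letters are not in this window. The STAT6 pattern, TTC and GAA with any 4 bases between them, found in 6.95% of all windows, was in neither. In thinned muscle cDC2-like cells, 43.8% of those with Cd209a also held Cd209d, against 5.71% of those without. In lung the shares were 33.3% with and 3.64% without Cd209a, from 12 cells with Cd209a.

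Of 8 receptors measured in cDC2-like cells, 2 were called lower in muscle, where 0.985% of 3654 genes were lower and 1.94% higher. Clec4n had 50.9 CPM (67 counts) in muscle and 335 CPM (120 counts) in lung, with a log2 ratio of -2.72 (-3.17 to -2.27). It was seen in 3.65% of thinned muscle cells and 26.9% of thinned lung cells. Clec10a had 85.2 CPM (112 counts) in muscle and 471 CPM (169 counts) in lung, with a log2 ratio of -2.47 (-2.83 to -2.12). Clec7a had 186 CPM in muscle and 457 CPM in lung, with a log2 ratio of -1.30 (-1.59 to -1.002). Clec4e had 111 CPM (146 counts) in muscle and 39.1 CPM (14 counts) in lung, with a log2 ratio of 1.51 (0.71 to 2.41) that turned to -0.82 with doublets kept, 1 of 11 alternatives. The median over the 8 was -0.14, beside 0.14 over all genes.

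The cDC2-like cluster was not alike in both libraries. Retnla, its leading gene, had 20425 CPM in muscle and 8.37 CPM (3 counts) in lung, and the macrophage scavenger receptor Cd163 had 70.7 CPM in muscle and 2.79 CPM (1 count) in lung. Macrophage markers summed to 2641 CPM in muscle and 1152 CPM in lung, with 1 of 15 at 0 in each. All 11 cDC2 markers were detected in both. None of the 11 was at 0 in lung neutrophil-like or alveolar macrophage-like cells either, so detection alone does not set this class apart. The transcription factor Zbtb46, 1 of these markers, had 36 counts in muscle (27.4 CPM) and 27 counts in lung (75.3 CPM) cDC2-like cells. Irf4, another transcription factor of this subset, had 142 counts in muscle (108 CPM) and 30 counts in lung (83.7 CPM). Flt3, the growth factor receptor of dendritic cells, had 12 counts in muscle (9.12 CPM) and 6 counts in lung (16.7 CPM). Ccl17 was at 345 CPM in muscle against 1347 CPM in lung, Itgax at 126 CPM against 391 CPM and Napsa at 291 CPM against 513 CPM. The class II genes H2-Aa and H2-Eb1 were at 8010.3 and 6267 CPM in muscle, against 6123 and 4932 CPM in lung. Neutrophil markers summed to 14.4 CPM in muscle, with 5 of 10 at 0, and to 940.1 CPM in lung with none at 0, and their part was not tested. The size of the group moved from 0 to 180 cells in muscle and from 0 to 437 cells in lung over the alternatives, so the name is unstable in both libraries. With doublets kept, 437 lung cells took the name and the Clec10a log2 ratio turned to 0.40. There 2 receptors were called higher in muscle, a count given without the share over all genes under that setting. The Clec10a call held in 7 of 11 alternatives. Clec4n stayed called lower in all 11 alternatives that gave a value, with log2 ratios from -3.89 to -2.46. These 11 include the alternatives, named above, that repeat the main ratio by construction.

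Other genes of cDC2-like cells included Il6, with 113 CPM in muscle and 5.58 CPM (2 counts) in lung, and Cxcl1, with 65.4 CPM in muscle and 5.58 CPM (2 counts) in lung, the 2 of 7 cytokine genes called higher (median 0.41). Of 8 alternative activation genes Retnla and Cd163 were higher (median 0.85). Of 8 other lectin receptors Clec4g, a receptor known from liver sinusoidal endothelium, had 38.0 CPM (50 counts) in muscle and no count in lung, at least 4.54-fold higher (list median 1.12 with this gene at its bound, 0.91 over the other 7). None of 11 signalling genes was called, with a median of -0.33.

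**Figure D5:**
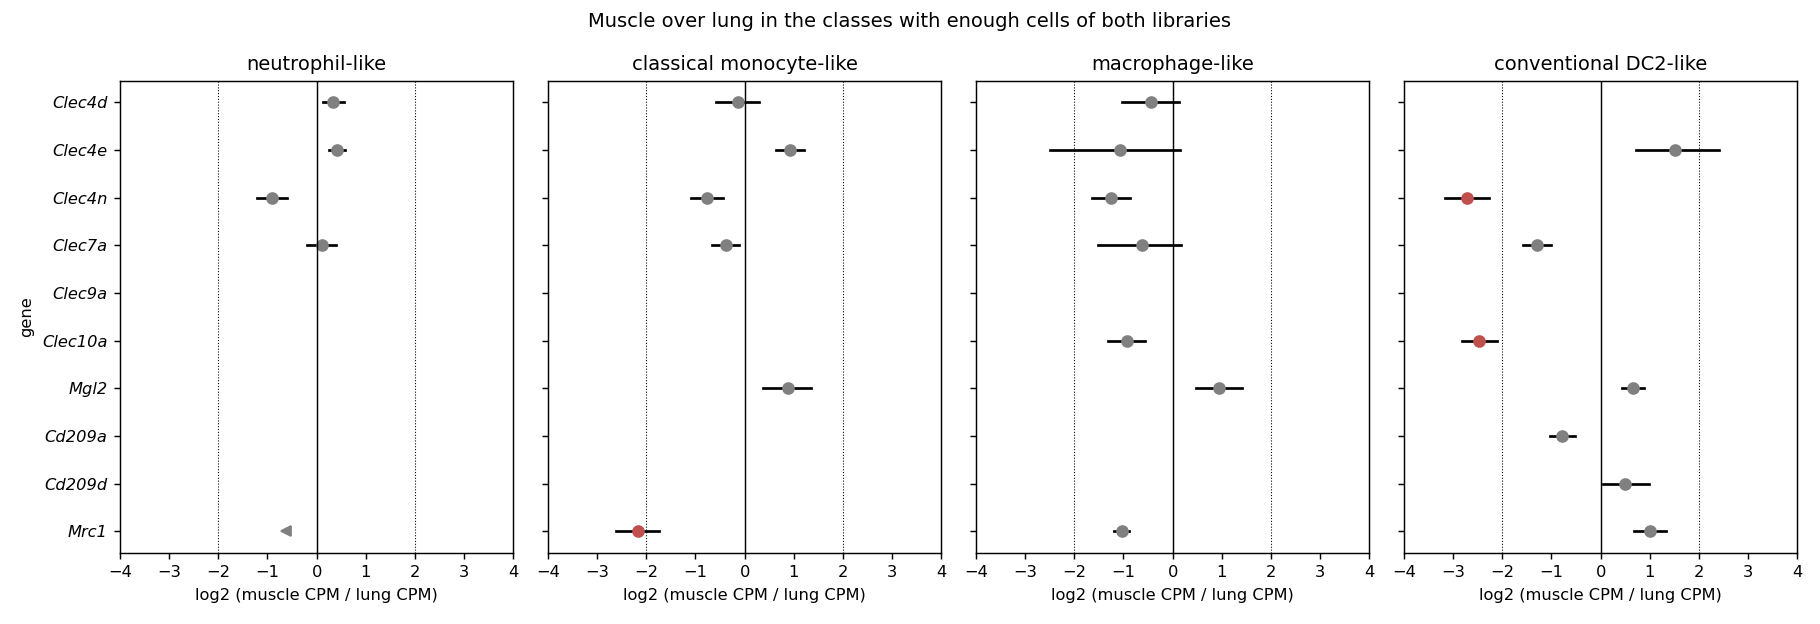
Log2 of muscle CPM over lung CPM (horizontal axis) for each receptor with at least 30 counts in the higher library, in the 4 classes with at least 20 cells of both libraries. Points are ratios with exact 95% intervals, red where called by size, dotted lines mark ratios of 4, and the arrowhead is a bound for Mrc1, which had no count in muscle neutrophil-like cells. The 3 red points are Mrc1 in monocyte-like cells (-2.16) and Clec4n (-2.72) and Clec10a (-2.47) in cDC2-like cells.

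Clec9a was highest in cDC1-like cells. The 11 muscle cDC1-like cells had 233 CPM (155 to 336) from 28 counts, and the 77 lung cells had 301 CPM (266 to 340) from 265 counts. These cells held 80.0% of all Clec9a counts in muscle (28 of 35) and 68.5% in lung (265 of 387). The next profile in order, the Kcnip4-led lung monocyte-like cluster, had 20.3 CPM (12.98 to 30.1). Xcr1, the chemokine receptor that marks this subset, had 74.8 CPM (9 counts) in muscle and 168 CPM (148 counts) in lung cDC1-like cells. With 11 muscle cells, under the 20 asked of a comparison, no ratio between tissues was called.

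Lung cDC1-like cells also carried Mgl2 at 302 CPM (267 to 341) and Clec10a at 200.04 CPM (172 to 232). In the 11 muscle cells Mgl2 had 3 counts and Clec10a 2, and Cd209a had none there against 135 CPM in lung. At their own depth 62.3% of the lung cDC1-like cells held Mgl2, 46.8% Clec10a and 18.2% Cd209a. Markers of cDC2 summed to 35967.5 CPM in these lung cells, with none of 11 at 0, and their part was not tested. Migratory dendritic cell-like cells of the lung were led by Ccl22, Cacnb3, Fscn1, Ccr7 and Il4i1. Counted from the highest of the 20 profiles, they ranked 16 to 20 for Clec4d, Clec4e, Clec4n, Clec7a and Mrc1. For Clec9a (7.60 CPM), Clec10a (51.7 CPM), Mgl2, Cd209a (10.6 CPM) and Cd209d (1.52 CPM) they ranked 4 to 8. Their Clec4e was the lowest of the 20 profiles at 4.56 CPM (3 counts), and their Mrc1 level was 13.7 CPM (9 counts). Clec7a (269 CPM) was seen in 20.2% of thinned cells, Clec4n (147 CPM) in 10.6% and Mgl2 (149 CPM) in 9.62%, the largest shares of the 10 receptors there. Of these cells 67.3% held none of the 10 receptors, against 3.37% of lung macrophage-like cells.

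The genes whose levels ran most like each receptor were ranked over 11156 genes by the same correlation across the 20 profiles. Nearest to Clec4d were Ccr1 (0.97), Cd33 (0.96) and Grina (0.96), and nearest to Clec4e were Per1, Sgms2 and Smox (0.94 each). Nearest to Clec4n were C3 (0.82), Alas1 and Rhbdf2 (0.80 each), and nearest to Clec7a were Mcemp1 (0.82), Klra2 (0.78) and Itgal (0.75). Clec9a ran with Ank1 (0.97), Tespa1 and Clnk (0.95 each), Clec10a with Zfp282 (0.93), Hfe (0.91) and Tmcc2 (0.90), and Mrc1 with Emp1 (0.96), Rab3il1 (0.95) and Steap3 (0.94). Mgl2 ran with Tmem176b (0.92), the MHC class II gene H2-Eb1 (0.91) and Mras (0.90). Cd209a ran with its relative Cd209c (0.95), Kcne3 (0.90) and Fgfr1 (0.88), and Cd209d with Fgfr1, Cd209c (0.91 each) and Capn5 (0.88). Clec4d and Mgl2 ran in opposite order (-0.85). Ranked by Spearman correlation instead, 4 of the 10 receptors shared none of these 3 nearest genes.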

How the data were processed

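Per the labels' protocols, digested tissue was enriched with CD45 beads and sequenced with a 10x Genomics 5′ kit. The values are raw UMI counts, deposited as 1 matrix of genes by barcodes for each tissue. The submitters' processing notes name Cell Ranger 7.0.1 and GRCm39. Annotation release, intron counting and cell calling method are not given in the sources used here. Doublets were scored against simulated pairs, and 100 muscle barcodes (4.46%) and 556 lung barcodes (6.79%) were removed, at 0.8% per 1000 barcodes. Both libraries were clustered together with scikit-learn 1.9.0 (30 principal components of 2000 variable genes) and leidenalg 0.10.2 (resolution 1, seed 1). Cells of myeloid classes were clustered again, and a cluster with at least 2 more markers of another class than of its own among its 10 leading genes stayed unnamed. Both steps were chosen after the data were seen. A gene without counts in 1 tissue entered list medians at its bound, or at 0 where the bound gave no direction. Ratios carry exact conditional binomial intervals, levels Poisson and shares Clopper-Pearson intervals. The call rule was checked on simulated counts.

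Members, markers and lists (Fcer1g, Syk and Card9 signalling; other C-type lectin receptors; alternative activation; cytokines) were chosen with earlier results of these data known. All 10 receptors, list genes called by size, the 3 most correlated genes and the 5 leading genes of each cluster are named. Fcer1g, Syk, Card9 and single markers were added as background. Replicates and batches could not be examined, since each tissue was 1 library. Alternatives varied filters, doublets, clustering, scaling and count minimum, or compared tissues within 1 cluster. Changes of the count minimum left every ratio as it was. In macrophage-like and cDC2-like cells the cluster is the whole class, so that rerun repeats the main result. Counts of alternatives that agree therefore include some that could not differ.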

Additional observations from a re-analysis of the deposited data

Results flagged for a closer look

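Counts of the 10 receptors were also present in barcodes that entered no comparison. Muscle barcodes over the mitochondrial limit held 355 of them, 75.2 CPM against 610.4 CPM in kept muscle barcodes, with all 10 receptors detected. Muscle barcodes scored as doublets held 99 counts (163 CPM) of 9 receptors, Clec10a being at 0. Lung barcodes over the mitochondrial limit held 360 counts, 593 CPM against 1664 CPM in kept lung barcodes. Lung barcodes scored as doublets held 8541 counts (1993 CPM), of which Clec4n gave 2123 and Clec4e 1870.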

How the results depend on the processing

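No paired analysis was possible because each tissue was 1 library. Neutrophil-like cells gave no called receptor under any alternative run. Scaling by TMM, by medians of ratios or without mitochondrial genes, Rn18s and Malat1 left every count of called receptors as it was. In monocyte-like cells the count lower in muscle was 0 instead of 1 with doublets kept, at resolution 0.5, with the receptors among the variable genes, with libraries clustered alone, with a single pass of clustering (chosen after seeing the data) and within the Ccl2-led cluster. With a single pass, Mrc1 reversed to 0.55 and 2 receptors were higher, as with no minimum on counts, and 1 was higher at a minimum of 10 counts and within the Ccl2-led cluster. In macrophage-like cells 1 receptor was higher at resolution 0.5, at a minimum of 10 counts and with no minimum, and 1 was lower at resolution 0.5. In cDC2-like cells Clec10a reversed to 0.40 with doublets kept, where 2 were higher. There 1 was higher and 1 lower at a mitochondrial limit of 20% and at 500 genes, and 1 was higher at resolution 2.0. The causes were not tested. Apart from the rerun within the Ccl2-led cluster, the shares of all genes called under these alternatives are not given here. These counts of called receptors therefore cannot be set against a background. No cDC2-like comparison could be made at a limit of 5% (3 lung cells) or with libraries alone (no lung cells). At resolution 0.5 and with a single pass no cells of either library took the name. Muscle macrophage-like cells then numbered 197 at resolution 0.5, against 50 in the main run. Muscle monocyte-like cells numbered 165 with a single pass, against 33. Which cells changed name was not traced. Levels below the background classes cannot be read at this depth.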

Other observations

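Plasmacytoid dendritic cell-like cells were too few for a comparison, with 1 muscle and 19 lung cells, and were looked at after their values were seen. The 19 lung cells held 77 counts of Cd209d, 576 CPM (455 to 720.2), which was 46.1% of all Cd209d counts in lung. A UMI of Cd209d was seen in 57.9% of them (33.5 to 79.7%), against none of 717 lung B-like cells. Clec10a had 344 CPM (46 counts) in these cells and was seen in 84.2% of them, and Cd209a had 247 CPM (33 counts).

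Clusters left unnamed held 51.4% of the Mgl2 counts in lung. Most of these, 1222 of 1394, came from the cluster led by Ccl17, Dcstamp, C1qa, C1qc and C1qb, with 8 muscle and 272 lung cells. Its lung cells had 442 CPM of Mgl2, 749 CPM of Clec4n, 723 CPM of Clec7a and 362 CPM of Mrc1. It scored highest for cDC2 markers while 3 macrophage markers stood among its 10 leading genes, which is why it was given no name. In the dividing alveolar macrophage-like cluster led by Pclaf, Birc5, Ube2c, Top2a and Stmn1 (69 lung cells), Mgl2 had 278 CPM (244 to 317), against 7.84 CPM (4.65 to 12.4) in the 300 lung cells of the Chil3-led cluster. Marker support for the name of the dividing cluster was weaker. Its mean log2 marker fold was 0.98 with 5 markers up, against 2.34 and 8 in the Chil3-led cluster. None of its 10 leading genes was a marker of the class, against 5 in the Chil3-led cluster. Whether both clusters hold the same cell type was not tested.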
